A study of Mus musculus with 5 samples.

Results

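The MiT/TFE transcription factor genes *Tfeb*, *Tfe3*, *Mitf* and *Tfec*, the Rag GTPase genes *Rraga*, *Rragb*, *Rragc* and *Rragd*, and the TFE target gene *Gpnmb* were examined in RNAseq of mouse kidney cortex. These 9 genes were chosen by their symbols from the 24421 gene symbols of the deposited counts, and each had at least 1 count in every mouse. Kidney tissue came from 3 *Fnip1* null mice (labelled Fnip1-/-, mice 8637, 9210 and 9121) and 2 wildtype mice (labelled Fnip1+/+, mice 9055 and 9056), all on the C57BL6J background and untreated as far as the labels say. The null allele came from ENU mutagenesis, a chemical that mutates the germline, so *Fnip1* was disrupted in every cell of the mouse and not in the kidney alone. The study's own text calls the control mice Fnip1+/- in places. The labels give no age, sex or litter. The study's text gives an age range for the RNAseq mice as a group, without an age for each mouse. It also counts 3 wildtype mice, where 2 wildtype libraries were available here. In the library of null mouse 9121, *Xist*, transcribed from the inactive X chromosome of females, was at 314 normalized CPM (CPM, counts scaled to a common library size) and the Y-linked *Ddx3y* was at 0, while *Ddx3y* ran from 42.8 to 52.2 and *Xist* was at most 1.41 normalized CPM in the other 4 mice. By these transcripts the null group held both sexes, and 2 of the genes, *Tfe3* and *Rragb*, are X-linked.

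Folliculin and its partners Fnip1 and Fnip2 act at the lysosome, where they switch the nucleotide state of the small GTPases RagC and RagD. Each of these pairs with RagA or RagB, and the pair brings mTORC1, the kinase complex that couples growth to nutrients, to the lysosomal surface. The same Rag pair presents TFEB and TFE3 to mTORC1 for phosphorylation, which holds these factors in the cytoplasm through 14-3-3 proteins, and loss of folliculin is known to let them enter the nucleus. There the MiT/TFE factors bind short E-box sites and raise genes of lysosomes and autophagy. *Rragd* and *Gpnmb* are known targets of the factors themselves, and in the kidney translocations that fuse TFE3 or TFEB cause a class of renal carcinoma in which GPNMB protein is high. Transcript counts do not report nucleotide state, phosphorylation or where a factor is in the cell.

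Gene counts per library ran from 15799114 to 19132145, and 3 counts corresponded to 0.158 to 0.186 normalized CPM. *Fnip1* itself, the disrupted gene, was at 21.0, 16.9 and 16.0 normalized CPM in null mice 8637, 9210 and 9121 and at 51.8 and 48.7 in wildtype mice 9055 and 9056 (log2 fold change -1.48 ± 0.14 SE, adjusted p = 0.0330), so every null library was below both wildtype libraries. By edgeR's quasi-likelihood test with Benjamini-Hochberg adjustment over 13874 genes, 73 genes passed an FDR of 5% with a change of at least 2-fold, which is 0.526% of the genes tested. In these libraries 25.1% of the genes tested had an unadjusted p under 0.05, and in 45.9% the 3 null mice lay wholly above or wholly below both wildtype mice. Cell type markers moved with genotype as well: of 11 lists, the summed level was higher in every null mouse for 7, lower in every null mouse for 2 (B cells and proximal tubule) and overlapping for 2. The summed level of 5 podocyte markers was 659 to 773 normalized CPM in null and 367 to 370 in wildtype mice, with 5 of 5 markers higher in every null mouse. Macrophage markers summed to 184 to 379 in null and 156 to 179 in wildtype mice, with 13 of 15 higher in every null mouse, and proximal tubule markers summed to 9559 to 12388 in null and 13089 to 14880 in wildtype mice, with 3 of 8 lower and 2 of 8 higher in every null mouse. Null mouse 8637 was about as close to a wildtype mouse as to a null mouse, since across the 13874 genes the correlation of its log2 CPM was 0.987 with wildtype mouse 9055, 0.986 with null mouse 9210 and 0.972 with null mouse 9121. Without it, 963 genes passed both thresholds in place of 73. In bulk tissue, fewer cells of a type and less RNA per cell cannot be told apart.

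*Rragd* was the only one of the 9 genes that changed past both thresholds, and its level in *Fnip1* null cortex was 2.01-fold that of wildtype. The other Rag genes and the 4 MiT/TFE factor genes did not pass the test, and among them *Mitf* was higher and *Tfec* lower in every null mouse. *Gpnmb* was low in every library, with 12 to 21 counts in null mice and 6 and 2 in wildtype mice. Apart from *Gpnmb*, which passed the filter on low counts only through the null mice, 6 of the other 8 genes had null and wildtype values that did not overlap, beside 45.9% of all genes. An unadjusted p under 0.05 was found for 3 of these 8, *Rragd*, *Mitf* and *Tfec*, beside 25.1% of all genes.

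**Figure D1:**
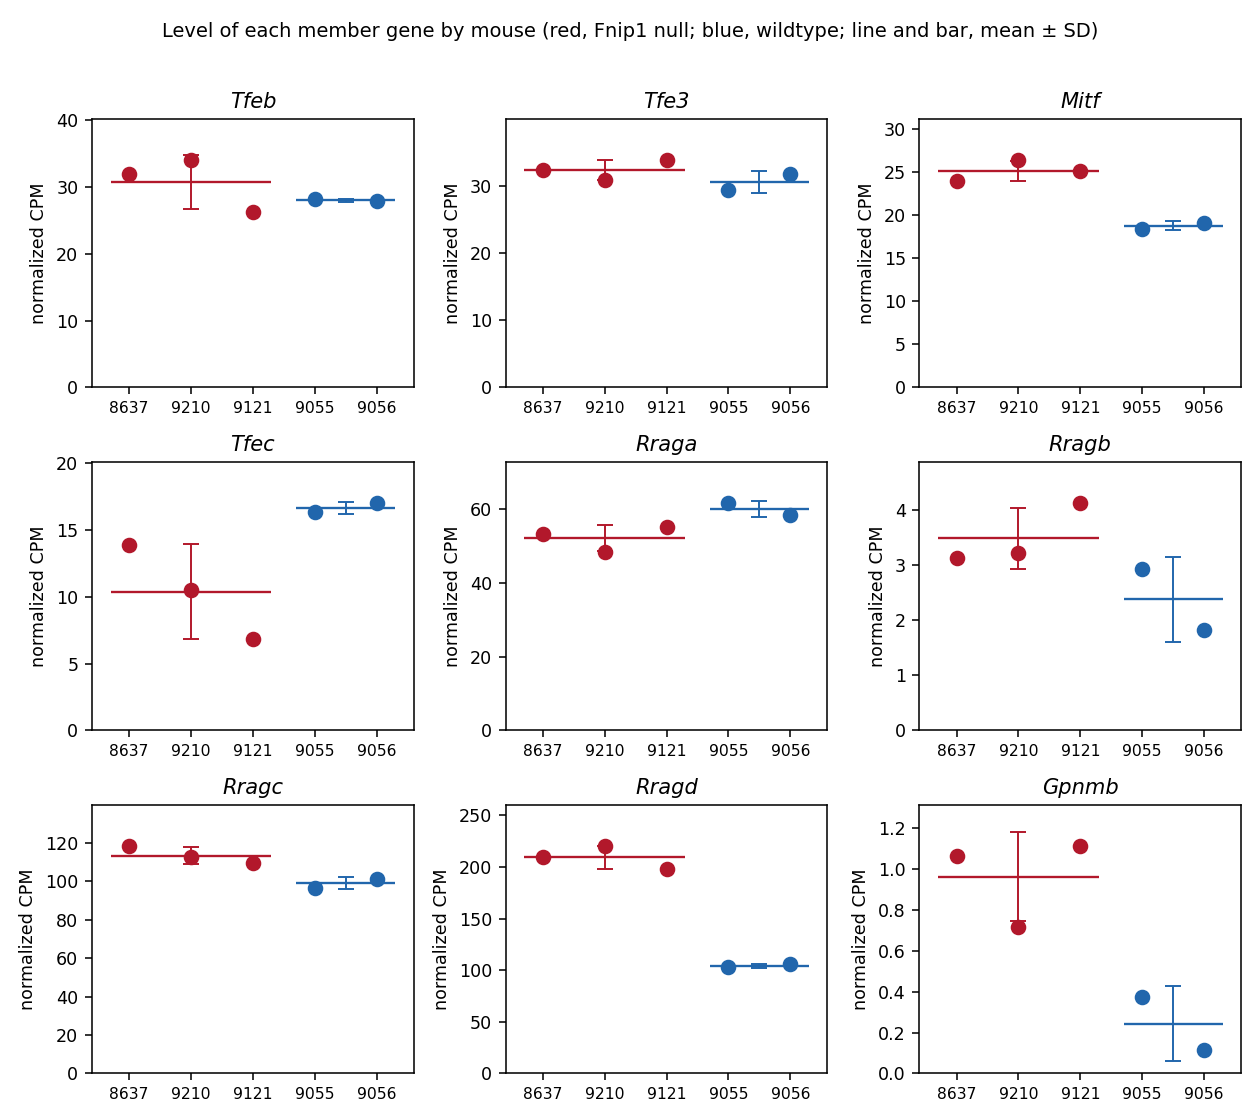
Normalized CPM of each of the 9 genes (y axis, from 0, own scale in each panel) by mouse (x axis), with red points for the 3 Fnip1 null mice, blue points for the 2 wildtype mice, and a line and bar for the group mean ± SD. Rragd sits near 209 in null and near 104 in wildtype mice, while Tfeb and Tfe3 overlap between the groups.

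The Rag genes lie apart in the genome (GRCm38, GENCODE M21). *Rraga* is at chr4:86575668-86577285, *Rragb* at chrX:153139981-153171943, *Rragc* at chr4:123917446-123936997 and *Rragd* at chr4:32983037-33022180, each on the plus strand. No 50-base stretch of the *Rraga* transcripts occurred in transcripts of another gene, and 0.222% of those of *Rragb*, 0.190% of those of *Rragd* and 6.75% of those of *Rragc* did, none of them in another Rag gene. The RefSeq promoter windows of the 9 genes, 250 bases before to 50 bases after the first transcribed base, were searched on both strands for the E-box CACGTG, the core of the sites that MiT/TFE factors bind. It was found in the windows of *Rragb* (3 copies, at -127, -36 and -3 from the start) and *Rragc* (1 copy, at -112), and not in the windows of the other 7 genes. Of all 27025 genes with such a window, 8.09% hold the E-box in at least 1 of their windows. The longer TCACGTGA, which contains the E-box, was in no window of the 9 genes and in 1.12% of all genes. The windows of *Rragd*, the gene that passed the test, of *Rragc* and *Rragb*, which hold the E-box, and of *Gpnmb* are given 5′ to 3′ on the plus strand of GRCm38.p6, with each E-box in capitals.
Rragd, chr4:32982748-32983047, plus strand: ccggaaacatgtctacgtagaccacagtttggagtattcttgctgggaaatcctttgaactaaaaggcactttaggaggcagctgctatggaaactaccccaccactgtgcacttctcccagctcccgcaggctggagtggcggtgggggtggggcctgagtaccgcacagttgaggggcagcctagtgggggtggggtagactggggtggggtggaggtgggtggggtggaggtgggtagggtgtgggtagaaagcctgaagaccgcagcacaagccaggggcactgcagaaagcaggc
Rragc, chr4:123917183-123917482, plus strand: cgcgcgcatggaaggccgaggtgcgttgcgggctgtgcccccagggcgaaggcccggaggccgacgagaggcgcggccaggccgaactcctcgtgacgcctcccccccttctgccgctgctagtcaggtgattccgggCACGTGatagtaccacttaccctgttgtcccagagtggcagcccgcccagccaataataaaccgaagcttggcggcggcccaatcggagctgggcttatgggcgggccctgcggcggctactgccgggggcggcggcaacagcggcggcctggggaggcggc
Rragb, chrX:153139708-153140007, plus strand: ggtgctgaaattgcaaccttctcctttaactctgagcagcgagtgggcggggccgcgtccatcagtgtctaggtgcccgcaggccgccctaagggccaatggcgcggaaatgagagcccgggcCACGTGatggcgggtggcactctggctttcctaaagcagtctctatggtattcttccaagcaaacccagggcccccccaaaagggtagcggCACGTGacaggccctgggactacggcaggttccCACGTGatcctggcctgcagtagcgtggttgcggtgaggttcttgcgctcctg
Gpnmb, chr6:49036268-49036567, plus strand: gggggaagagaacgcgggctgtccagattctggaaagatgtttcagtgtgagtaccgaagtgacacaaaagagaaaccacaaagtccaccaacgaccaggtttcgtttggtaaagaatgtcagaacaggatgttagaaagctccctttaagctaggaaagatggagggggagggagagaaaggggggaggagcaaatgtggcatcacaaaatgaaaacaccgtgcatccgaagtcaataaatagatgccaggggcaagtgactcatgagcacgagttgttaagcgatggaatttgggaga
A match is a description of these letters, and a window without one says only that these letters are not in it.

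*Rragd* encodes RagD, the paralog of RagC and one of the Rag proteins whose nucleotide state folliculin and Fnip1 control. It was at 209, 220 and 198 normalized CPM in null mice 8637, 9210 and 9121 and at 103 and 106 in wildtype mice 9055 and 9056. Every null mouse was above both wildtype mice, and the gap between the groups was far wider than the spread within either of them. The means were 209 ± 10.8 (SD, 3 mice) in null and 104 ± 1.86 (SD, 2 mice) in wildtype cortex, and the log2 fold change was 1.004 ± 0.09 SE with a 95% interval of 0.78 to 1.22 (adjusted p = 0.0330, edgeR's quasi-likelihood test). Among the 13874 genes tested, its p-value ranked 8, and 94.3% of genes had a lower log2 fold change. The estimate sat at the 2-fold threshold itself, and without the filter on low counts it was 0.99 (adjusted p = 0.0298), under that threshold. The adjusted p was 0.00546 without mouse 8637 and 0.0160 without mouse 9121, but 0.122 without null mouse 9210, and 0.216 and 0.508 without wildtype mouse 9055 and 9056, with log2 fold changes of 0.97 to 1.04 over these 5 fits.

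*Rragc* encodes RagC, which takes the same place in the Rag pair as RagD. Its level was 118, 112 and 109 normalized CPM in null mice 8637, 9210 and 9121, against 96.6 and 101 in wildtype mice 9055 and 9056. The null mice were all above the wildtype mice by a small margin. The log2 fold change was 0.20 ± 0.08 SE, with a 95% interval of 0.00 to 0.40 (adjusted p = 0.205). Its exons share 264 of 3341 bases with *4930535I16Rik* on the opposite strand, and whether reads were counted by strand is not given in the sources used here.

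*Rraga* encodes RagA, and *Rragb* encodes RagB, the paralogs that bind GTP when the pair recruits mTORC1. *Rraga* was at 53.2, 48.2 and 55.0 normalized CPM in null mice 8637, 9210 and 9121 and at 61.5 and 58.3 in wildtype mice 9055 and 9056. All null mice were below both wildtype mice, with a log2 fold change of -0.20 ± 0.10 SE (adjusted p = 0.245). *Rragb*, far lower, was at 3.12, 3.21 and 4.12 in null mice and at 2.92 and 1.83 in wildtype mice, in the same order. Its null values were above its wildtype values, but the nearest mice of the 2 groups, 8637 and 9055, differed by 53 against 47 counts. The log2 fold change of *Rragb* was 0.56 ± 0.29 SE (adjusted p = 0.272), and the highest value was that of mouse 9121, the mouse with *Xist*. Without wildtype mouse 9055 the log2 fold change was 0.92, and without wildtype mouse 9056 it was 0.25.

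**Figure D2:**
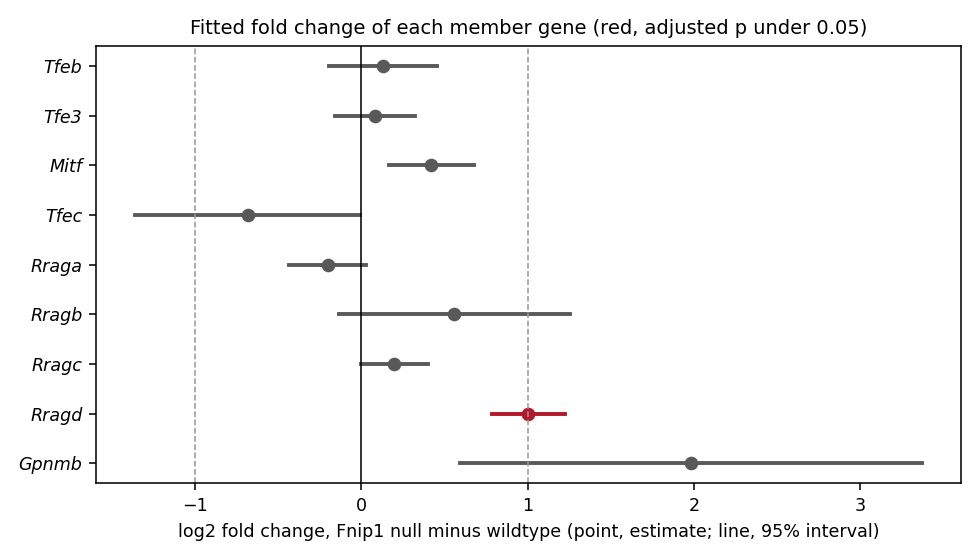
Fitted log2 fold change of Fnip1 null minus wildtype (x axis) for each of the 9 genes (y axis), with the estimate as a point, its 95% interval as a line, and dashed lines at a 2-fold change in either direction. Rragd, in red, has an adjusted p of 0.0330 and an estimate of 1.004, and the interval of Gpnmb is the widest of the 9, from 0.59 to 3.37.

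Levels of different genes were compared per kb of exon, the union of the exons of a gene's GENCODE M21 basic transcripts. The order depends on these lengths, and the annotation used for counting is not given. By normalized CPM without division, *Tfec* (16.7) was the lowest of the MiT/TFE factors in the wildtype means. In wildtype mice the order of mean CPM per kb was *Rragc* (38.1), *Rraga* (37.0), *Rragd* (20.2), *Tfec* (9.33), *Tfe3* (8.43), *Tfeb* (6.97), *Mitf* (3.54), *Rragb* (1.05) and *Gpnmb* (0.0540). Only *Rragc* and *Rraga* overlapped with their neighbour in that order. In null mice *Rragd* (40.4) stood second, behind *Rragc* (43.7) and ahead of *Rraga* (32.2), and the MiT/TFE factors followed as *Tfe3* (8.92), *Tfeb* (7.65), *Tfec* (5.82) and *Mitf* (4.74), with *Rragb* (1.54) and *Gpnmb* (0.213) last. The ranges of *Rragc* and *Rragd* overlapped in null mice, though *Rragc* was higher within each of the 3 mice, and those of *Tfeb* and *Tfec* and of *Tfec* and *Mitf* overlapped too.

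*Rragd* made up 47.1%, 49.5% and 47.6% of the summed *Rragc* and *Rragd* level per kb in null mice 8637, 9210 and 9121, against 34.8% and 34.4% in wildtype mice 9055 and 9056. The share was thus higher in each null mouse, by 13.4 percentage points between the means (exact permutation test, two-sided p = 0.1, the smallest that 3 mice against 2 allow). The summed *Rragc* and *Rragd* level was 84.1 ± 3.16 CPM per kb (SD, 3 mice) in null and 58.3 ± 1.55 (SD, 2 mice) in wildtype cortex, 1.44-fold. *Rragb* made up 4.04%, 4.55% and 5.09% of the summed *Rraga* and *Rragb* level in null mice and 3.29% and 2.20% in wildtype mice, in the same order of mice (exact permutation test, two-sided p = 0.1). The sum of *Rraga* and *Rragb* was 33.8 ± 2.34 CPM per kb in null and 38.1 ± 1.72 in wildtype cortex, 0.886-fold, and the sum over the 4 Rag genes was 118 ± 2.07 in null and 96.4 ± 0.179 in wildtype cortex. So the summed level of the RagC and RagD genes was higher and that of the RagA and RagB genes lower in each null mouse than in either wildtype mouse.

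**Figure D3:**
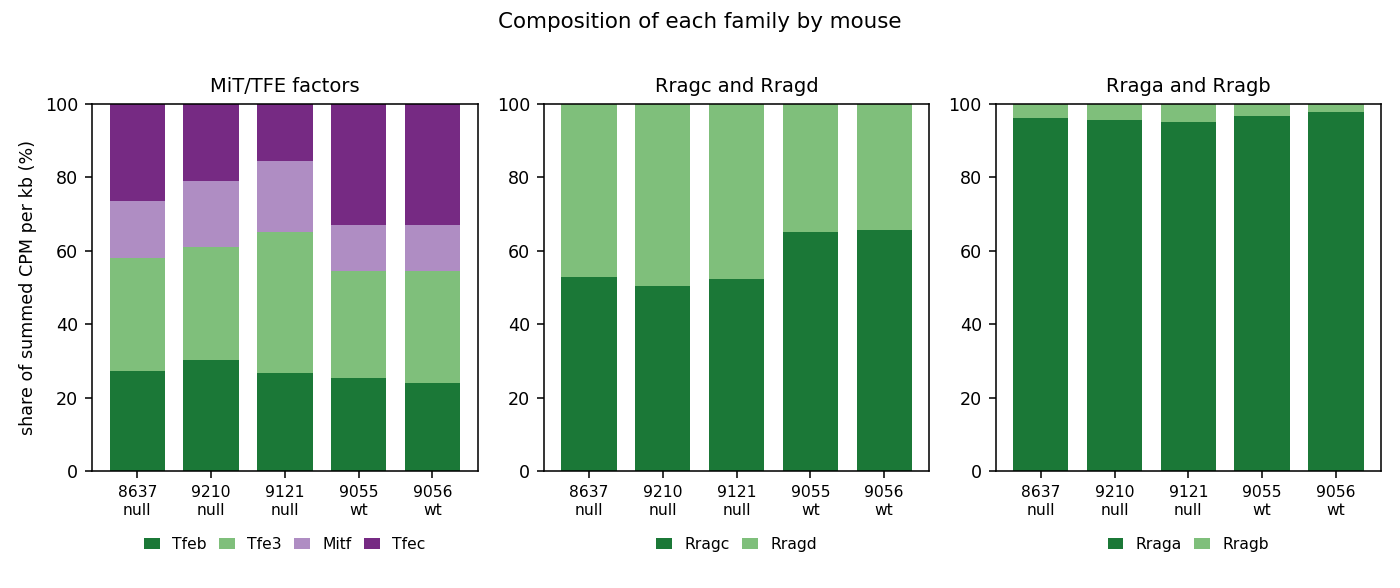
Share of each gene in the summed CPM per kb of its family (y axis, percent) in each mouse (x axis, null or wildtype, wt), as stacked bars from 0 to 100. The Rragd share is 47.1% to 49.5% in the 3 null mice and 34.4% to 34.8% in the 2 wildtype mice, and the Tfec share is lower in each null mouse.

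The factor genes follow. *Tfeb* (chr17:47737030-47792419, plus strand) encodes the factor best known as a regulator of lysosome genes. It was at 31.9, 33.9 and 26.2 normalized CPM in null mice 8637, 9210 and 9121 and at 28.1 and 27.9 in wildtype mice 9055 and 9056. The groups overlapped, since mouse 9121 was below both wildtype mice, and the log2 fold change was 0.13 ± 0.13 SE with a 95% interval of -0.19 to 0.46 (adjusted p = 0.562). *Tfe3* (chrX:7762560-7775202, plus strand), the factor fused in translocation renal carcinoma, was at 32.3, 30.9 and 33.7 normalized CPM in the null and 29.3 and 31.7 in the wildtype mice, in the same order. These values overlapped as well, with a log2 fold change of 0.08 ± 0.10 SE and a 95% interval of -0.16 to 0.32 (adjusted p = 0.633). For both genes the interval left out a 2-fold change in either direction.

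*Mitf* (chr6:97807052-98021349, plus strand) encodes the founding member of the family, known from melanocytes, mast cells and osteoclasts. It was at 24.0, 26.4 and 25.1 normalized CPM in null mice 8637, 9210 and 9121 and at 18.5 and 19.2 in wildtype mice 9055 and 9056. All 3 null mice were above both wildtype mice, and the spread within each group was small beside the gap. The log2 fold change was 0.42 ± 0.11 SE, with a 95% interval of 0.16 to 0.68 (adjusted p = 0.0996, edgeR's quasi-likelihood test). It passed the FDR only without null mouse 8637 (adjusted p = 0.0389), and at under 2-fold. The melanocyte markers *Tyr*, *Tyrp1*, *Dct* and *Mlana* had 3 counts or fewer in every mouse, so 4 of the 5 genes of that list were at or near 0.

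*Tfec* (chr6:16833373-16898441, minus strand) encodes the least studied of the 4 factors, known from macrophages. It was at 13.8, 10.5 and 6.81 normalized CPM in null mice 8637, 9210 and 9121 and at 16.3 and 16.99 in wildtype mice 9055 and 9056. The null mice were all below the wildtype mice but ranged widely among themselves. Mouse 8637 was nearest to the wildtype level, and mouse 9121, the mouse with *Xist*, was farthest from it. The log2 fold change was -0.68 ± 0.28 SE with a 95% interval of -1.36 to -0.01 (adjusted p = 0.195). Without mouse 8637 it was -0.94 (adjusted p = 0.0369), and without mouse 9121 it was -0.45 (adjusted p = 0.219). The macrophage markers were ordered the other way, with sums of 184, 249 and 379 normalized CPM in mice 8637, 9210 and 9121. The sum of 8 proximal tubule markers was 12388, 10742 and 9559 in these null mice and 13089 and 14880 in wildtype mice 9055 and 9056, so mice 8637, 9210 and 9121 had the same order by both measures. Per 1000 CPM of these markers *Tfec* stood at 1.12, 0.980 and 0.713 in null mice 8637, 9210 and 9121, against 1.25 and 1.14 in wildtype mice 9055 and 9056, without overlap and at 0.784-fold between the means. Over the 11 marker lists, this ratio was lower in every null mouse for 9, higher in every null mouse for 1 and overlapping for 1. For 7 of the lists the marker sum was itself higher in every null mouse. With *Tfec* lower in every null mouse, a lower ratio to these 7 was fixed in advance. The list with the higher ratio was B cells, whose markers summed to only 0.0595 to 0.686 normalized CPM in null mice.

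The 4 factors together held 29.1, 27.8 and 24.4 CPM per kb in null mice 8637, 9210 and 9121, against 27.7 and 28.8 in wildtype mice 9055 and 9056, so their summed level overlapped between the groups (exact permutation test, two-sided p = 0.9). Within the sum, *Tfec* held the largest share in both wildtype mice, 33.0% in each, and 26.6%, 21.2% and 15.6% in null mice 8637, 9210 and 9121 (exact permutation test, two-sided p = 0.2). *Mitf* held 15.5%, 17.8% and 19.4% in these null mice and 12.5% in each wildtype mouse (p = 0.2 by the same exact test). The share of *Tfeb* was 28.2% ± 1.94 (SD) in null and 24.7% ± 0.845 in wildtype mice (p = 0.1 by the same exact test), and that of *Tfe3* 33.2% ± 4.38 and 29.8% ± 0.830 (p = 0.4 by the same exact test). None of these 6 shares, those of *Rragb* and *Rragd* included, could reach a p of 0.05 with 5 mice, and the shares of one family sum to a fixed total.

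*Gpnmb* (chr6:49036546-49070929, plus strand) encodes a transmembrane glycoprotein of macrophages, osteoclasts and melanocytes that is used as a marker of TFE3 and TFEB activity in renal tumors. It had 18, 12 and 21 counts in null mice 8637, 9210 and 9121, against 6 and 2 counts in wildtype mice 9055 and 9056, or 1.06, 0.713 and 1.11 against 0.373 and 0.114 normalized CPM. All null mice were above both wildtype mice. Wildtype mouse 9056 was below the 3 counts taken here as the limit of detection. Both wildtype mice had fewer than 10 counts, so the gene passed the filter only through the null mice. Its groups without overlap, its ratio of counts and its p-values given below are therefore no support for a difference. The summed counts, 51 in null and 8 in wildtype mice, gave a ratio of 4.06 per library size, with an exact 95% interval of 1.91 to 9.90 that covers counting error only. The fitted log2 fold change was 1.98 ± 0.57 SE (adjusted p = 0.117, edgeR's quasi-likelihood test). The adjusted p was 0.0171 with edgeR's exact test and 0.0135 with its likelihood ratio test, while DESeq2 gave none for a gene this low, and without wildtype mouse 9055 or 9056 the log2 fold change was 3.00 or 1.35.

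Most macrophage markers were higher in every null mouse, as *Gpnmb* was, but the order among the null mice differed. The marker sum was lowest in mouse 8637 (184 normalized CPM, beside 249 and 379 in mice 9210 and 9121). *Gpnmb* was lowest in mouse 9210 (0.713, beside 1.06 and 1.11 in mice 8637 and 9121). Of the 14 macrophage markers tested, 13 had a positive log2 fold change and 0 passed the FDR by the quasi-likelihood test, with 13 higher and 1 lower at an unadjusted p under 0.05, whereas 10 passed by edgeR's exact test, by its likelihood ratio test and by DESeq2. Examples are *Adgre1*, which encodes F4/80 (log2 fold change 1.53), and *C1qc* of complement (1.44), while *Csf1r*, the receptor for macrophage growth factor, was lower (-0.61). Per 1000 CPM of the summed macrophage markers, *Gpnmb* stood at 5.77, 2.87 and 2.93 CPM in null mice 8637, 9210 and 9121 and at 2.08 and 0.734 in wildtype mice 9055 and 9056. With 6 and 2 counts in the wildtype mice, nothing is read from this ratio or from the nearest patterns of *Gpnmb* that follow. The nearest patterns to *Gpnmb* over the 5 mice, by the root mean square difference of centred log2 normalized CPM among 13273 genes with a mean of at least 1 CPM, were those of *Hpgds* (0.326), a prostaglandin D synthase, *Clec4a1* (0.363), a C-type lectin, and *Rorb* (0.373), a nuclear receptor. *Hpgds* was at 4.30, 3.15 and 5.60 normalized CPM in null mice and at 1.55 and 0.858 in wildtype mice, in the order used above.

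Podocyte markers, like *Rragd*, were higher in every null mouse. Podocytes are the epithelial cells that form the filter of the glomerulus. Of the 5 podocyte markers, 3 passed the FDR by edgeR's quasi-likelihood test, among them *Nphs1* (log2 fold change 1.08, adjusted p = 0.0354), which was past 2-fold too, and *Synpo* (0.90, adjusted p = 0.0330), which was not. Per 1000 CPM of the summed podocyte markers, *Rragd* stood at 318, 285 and 284 CPM in null mice 8637, 9210 and 9121 and at 278 and 288 in wildtype mice 9055 and 9056. By this ratio the groups overlapped and the means were 1.04-fold apart. Per 1000 CPM of the 5 collecting duct markers, which were themselves 1.60-fold higher in null mice, *Rragd* stood at 415, 320 and 288 in null and at 259 and 273 in wildtype mice, without overlap. Per 1000 CPM of the 5 thick limb and distal tubule markers it stood at 26.3, 27.1 and 17.2 in null and at 12.3 and 14.03 in wildtype mice, again without overlap. Of these 5 markers, 2 were themselves higher in every null mouse, *Slc12a3* and *Calb1* (log2 fold change 0.48 for each), and 0 were lower. Per 1000 CPM of the 8 proximal tubule markers, *Rragd* stood at 16.9, 20.5 and 20.8 in null and at 7.87 and 7.10 in wildtype mice (2.59-fold between the means). As the proximal tubule sum was itself lower in every null mouse, this ratio was bound to be higher. Over the 11 marker lists, the ratio of *Rragd* to the markers was higher in every null mouse for 5, lower in every null mouse for 1 and overlapping for 5. Beside podocytes, the overlapping lists were macrophages (1.36-fold between the means), endothelium (1.23-fold), T cells (0.786-fold) and adipocytes (0.700-fold). Melanocytes and B cells (both higher) and neutrophils (lower) rest on low sums. Melanocyte markers summed to 0.648 to 0.994 normalized CPM over the 5 mice and B cell markers to 0.0595 in null mouse 9210. Neutrophil markers summed to 0.994 and 1.14 in wildtype mice 9055 and 9056.

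The 3 genes with the pattern nearest to *Rragd*, by the same measure among 13272 genes, were *Plce1* (0.0466), a phospholipase C, *Epb4.1l3* (0.0717), a protein 4.1 family gene, and *Synpo* (0.0729), an actin-associated gene of the podocyte list. *Plce1* was at 16.6, 17.8 and 15.0 normalized CPM in null mice 8637, 9210 and 9121 and at 8.57 and 8.18 in wildtype mice 9055 and 9056. Its log2 fold change was 0.98 (adjusted p = 0.0495), beside 1.004 for *Rragd*. Which cells of the cortex hold the *Rragd* transcripts cannot be read from these libraries, and the part of podocyte content in its level was not tested.

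**Figure D4:**
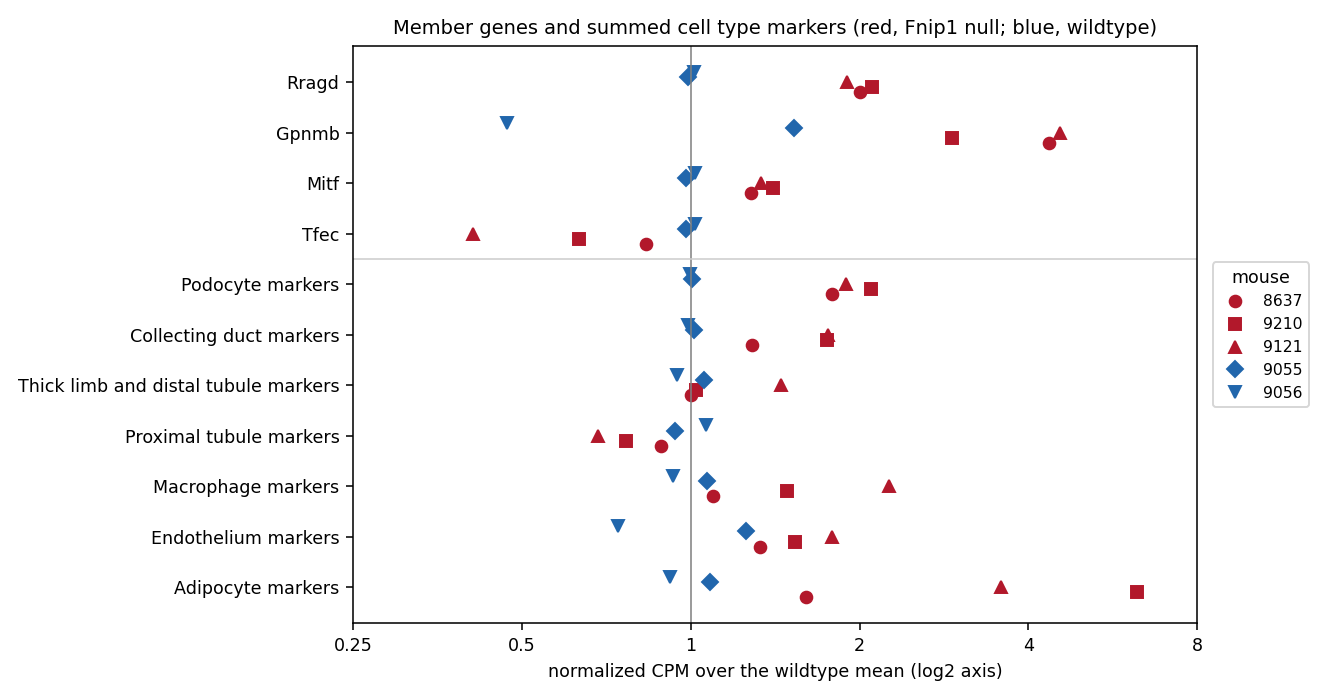
Normalized CPM of Rragd, Gpnmb, Mitf and Tfec and of the summed markers of 7 cell types (y axis), each divided by its wildtype mean (x axis, log2 scale), with 1 symbol per mouse, red for Fnip1 null and blue for wildtype. Rragd and the podocyte markers are both near 2 in the null mice, and Tfec and the proximal tubule markers are both lower in the null mice, in the order 8637, 9210 and 9121.

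The remaining genes of the pathway were taken by list. In the folliculin complex, 1 of 3 genes passed both thresholds, which was *Fnip1*. *Flcn*, the gene of folliculin, was at 59.2 ± 4.78 (SD) normalized CPM in null and 51.4 ± 2.26 in wildtype cortex (log2 fold change 0.20, adjusted p = 0.267), and *Fnip2*, the paralog of *Fnip1*, at 153 ± 18.4 and 176 ± 17.7 (-0.20, adjusted p = 0.357).

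Upstream of the Rag proteins, Ragulator is the scaffold that holds them on the lysosome and Slc38a9 its arginine sensor. None of these 6 genes passed the FDR by the quasi-likelihood test, the exact test, the likelihood ratio test or DESeq2, and 1 had an unadjusted p under 0.05. That one was *Slc38a9*, at 13.3, 14.4 and 13.3 normalized CPM in null mice 8637, 9210 and 9121, against 18.3 and 17.4 in wildtype mice 9055 and 9056 (log2 fold change -0.39, adjusted p = 0.127). *Lamtor3* (0.16) and *Lamtor5* (-0.18) had the next smallest p-values. GATOR1, GATOR2 and KICSTOR carry the amino acid signal to RagA and RagB. Of their 11 genes tested, 0 passed the FDR by any of these 4 tests and 0 had an unadjusted p under 0.05 by the quasi-likelihood test. Their log2 fold changes lay between -0.22 for *Nprl3* and 0.09, with a median of -0.05 beside 0.00 over all genes tested. *Sec13* (-0.19) and *Nprl2* (-0.17) were the other two with the smallest p-values.

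The Sestrins, CASTOR proteins and SAMTOR sense single amino acids or S-adenosylmethionine. Of these 6 genes 0 passed the FDR by the quasi-likelihood test, and 1, *Sesn1*, passed it by each of the other three tests. *Sesn1* was at 24.0, 30.3 and 22.4 normalized CPM in null mice 8637, 9210 and 9121, against 17.1 and 16.6 in wildtype mice 9055 and 9056 (log2 fold change 0.60, adjusted p = 0.104 by the quasi-likelihood test). *Sesn2* was at 36.2, 35.4 and 37.3 in null and 43.3 and 57.7 in wildtype mice (-0.48, adjusted p = 0.114), while *Sesn3* had a log2 fold change of 0.17 and overlapped between the groups. *Gatsl3*, the symbol in the files for *Castor1*, had a log2 fold change of -0.62 (adjusted p = 0.222).

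The 14-3-3 proteins hold phosphorylated TFEB and TFE3 in the cytoplasm, and calcineurin, activated by calcium that leaves the lysosome through Mcoln1, removes the phosphate. None of these 12 genes passed the FDR by the quasi-likelihood test, and 2 had an unadjusted p under 0.05. These were *Ppp3cc*, a calcineurin catalytic subunit gene (log2 fold change -0.52, adjusted p = 0.104), which passed the FDR by the other three tests, and the 14-3-3 gene *Ywhaz* (-0.46, adjusted p = 0.168). *Ywhaq* had a log2 fold change of 0.18 (adjusted p = 0.276).

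The CLEAR network is the set of lysosome and autophagy genes with sites for the MiT/TFE factors. Of 39 such genes, 20 had log2 fold changes above 0 and 19 below, with a median of 0.03 beside 0.00 over all genes tested. At an unadjusted p under 0.05 were 4 higher and 6 lower genes, 25.6% of the list beside 25.1% of all genes. One passed both thresholds. This was *Hexa*, a subunit gene of lysosomal hexosaminidase, at 104, 133 and 131 normalized CPM in null mice 8637, 9210 and 9121, against 59.1 and 55.8 in wildtype mice 9055 and 9056 (log2 fold change 1.10 ± 0.13 SE, adjusted p = 0.0386). *Atp6v0d2*, a subunit gene of the proton pump, was at 104, 155 and 120 in null and 46.3 and 55.4 in wildtype mice (1.31 ± 0.19 SE, adjusted p = 0.0506), and *Gusb*, of beta-glucuronidase, had a log2 fold change of -0.48 (adjusted p = 0.0777). Of the 5 collecting duct markers, 4 were higher in every null mouse, *Atp6v1g3* (log2 fold change 1.12) and *Slc4a1* (1.06) among them, and 1 was lower. The part of collecting duct content in the *Atp6v0d2* level was not tested. Of the 28 CLEAR genes with a promoter window, 14 hold the E-box CACGTG, and *Hexa*, which has a window, is not among them.

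**Figure D5:**
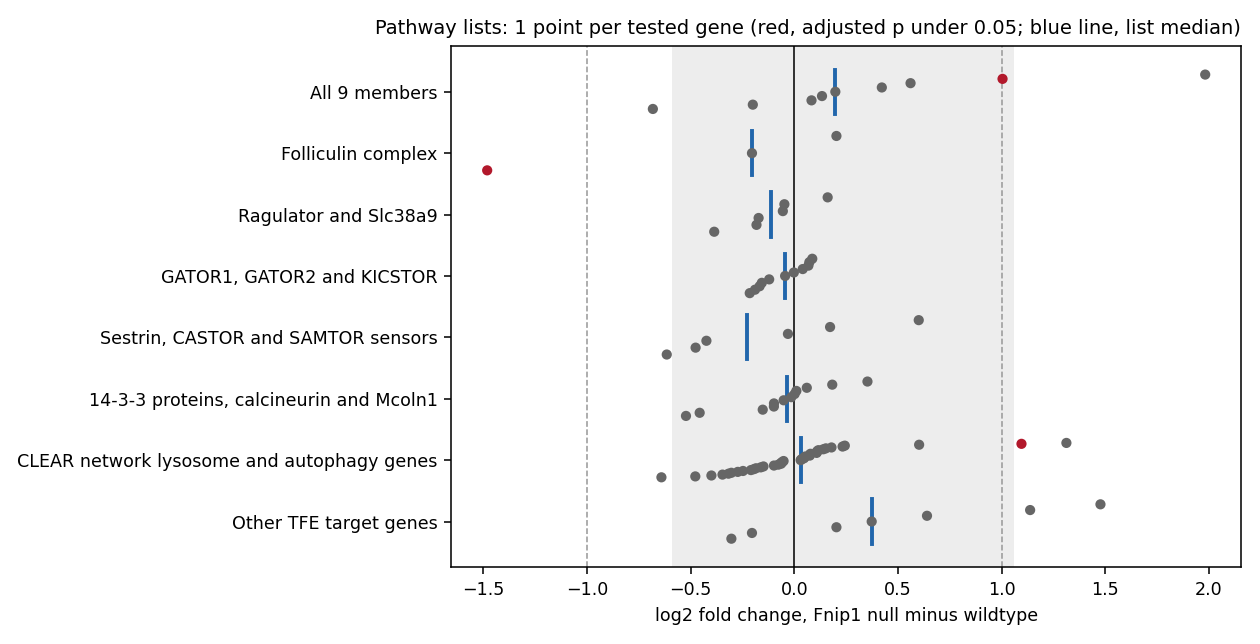
Log2 fold change of Fnip1 null minus wildtype (x axis) of each tested gene in the 9 members and in 7 pathway lists (y axis), with list medians as blue lines, genes with an adjusted p under 0.05 in red, and the grey band from -0.59 to 1.06 covering the middle 90% of all genes tested. The red points are Rragd, Fnip1 and Hexa, and the CLEAR genes lie on both sides of 0.

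Another list held 7 targets of the MiT/TFE factors, among them *Flcn* and *Fnip2* from the folliculin complex. Of these 7, 5 had a positive log2 fold change and 0 passed the FDR by the quasi-likelihood test. At an unadjusted p under 0.05 were 4 higher genes, *Hk2* among them, and 1 lower gene. That is 71.4% of the list beside 25.1% of all genes. The list is short and was chosen with earlier results of these data known, so nothing is read from this share. *Irs2*, an adaptor of the insulin receptor, was at 33.1, 22.9 and 25.3 normalized CPM in null mice 8637, 9210 and 9121, against 17.9 and 16.9 in wildtype mice 9055 and 9056 (log2 fold change 0.64, adjusted p = 0.111). *Hk2*, a hexokinase gene, was at 1.17 ± 0.352 (SD) in null and 0.415 ± 0.0600 in wildtype mice (1.48, adjusted p = 0.131), and *Ctsk*, the osteoclast protease, at 7.18 ± 2.55 and 3.27 ± 0.738 (1.14, adjusted p = 0.133). In wildtype mice 9055 and 9056 *Hk2* was at 0.373 and 0.458 normalized CPM, fewer counts than the minimum of the filter. Like *Gpnmb*, *Hk2* passed the filter only through the null mice, so its p-values are no support for a difference. This limit holds for its place among the 4 higher genes, in the 71.4% and in the tests that follow. Of this list *Irs2* and *Hk2* passed the FDR by edgeR's exact test, *Irs2*, *Hk2* and *Ctsk* by its likelihood ratio test, and *Irs2* and *Ctsk* by DESeq2. *Sqstm1*, an autophagy receptor gene in both lists, was the lower one, at 571, 528 and 502 in null and 639 and 679 in wildtype mice (-0.30, adjusted p = 0.176).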

How the data were processed

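RNAseq libraries from total RNA of kidney cortex of 5 mice were sequenced by the authors as read pairs, aligned to mm10 with TopHat 2.1.0 and counted per gene symbol with HTSeq 0.6.1. The annotation and strand setting are not given in the sources used here. The deposited values are raw counts per gene, without normalization. Rows that name no gene were left out. Genes with fewer than 10 counts in more than 2 of 5 mice were removed, which left 13874, and the libraries were scaled by TMM.

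Genotypes were compared with the quasi-likelihood test of edgeR 4.0.16 (R 4.3.3) and Benjamini-Hochberg adjustment. A gene was called past an FDR of 5% where its change was 2-fold or more. The labels give each library its own mouse number but no litter, so whether the mice were related is not known. Shares were compared by an exact permutation test over mice. The alternatives were 3 other tests (DESeq2 1.42.0 among them), 2 scalings, 2 filters, an earlier form of the quasi-likelihood test chosen after seeing the data, and leaving out each mouse. The fits were tested on simulated data. The members and lists were chosen with earlier results of these data known, by symbol: all 9 members, the 3 genes with the smallest p-values in each pathway list and any further gene called, and the 3 genes nearest to *Gpnmb* and *Rragd*. *Sqstm1*, *Sesn3* and the marker genes given as examples were chosen after their values were seen. Of the listed symbols, 3 were matched through older symbols of RefSeq. Single genes of some lists are not reported here.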

Additional observations from a re-analysis of the deposited data

How the results depend on the processing

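All 9 genes kept the direction of their log2 fold change under every alternative fit that tested them. *Gpnmb* was left out by a filter of at least 1 CPM in 3 mice. It passed the reported filter only through the null mice, so its calls below are no support for a difference. The count of these genes past both thresholds was 2 with edgeR's exact test and with its likelihood ratio test (*Rragd* and *Gpnmb*), 0 without a filter on low counts, and 0 to 1 when single mice were left out. Over all genes, 73 passed by the quasi-likelihood test, 570 by the exact test, 628 by the likelihood ratio test and 487 by DESeq2. Leaving out single mice gave 0 to 963 genes, with 963 without mouse 8637, 136 without mouse 9121, and 0 without mouse 9210, 9055 or 9056, where 2084, 2485 and 1233 genes still had an unadjusted p under 0.05. Fits without a wildtype mouse assume that the lone one varies like the null mice. The cause was not tested.

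Scaling by library size only moved the median log2 fold change of all genes from 0.00 to 0.17. *Rraga* then stood at -0.04, below that median as before. The median log2 fold change of the Ragulator list minus that of all genes was -0.12 in the reported fit, -0.27 without wildtype mouse 9055 and 0.00094 without wildtype mouse 9056. Shares kept their direction per kb, per CPM and without each mouse, but not their size. The *Tfe3* share was 3.34 percentage points higher in null mice per kb, 0.437 per CPM and 0.811 without mouse 9121, and the *Tfeb* share was 3.47 points higher per kb and 1.26 per CPM (exact permutation test, two-sided p = 0.5). No paired analysis was possible because the groups share no mouse number. Counts of 6 and 2 in wildtype mice limit what can be said of *Gpnmb*.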
